A study of Rattus norvegicus with 52 samples.

Results

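The 5 enzymes of the urea cycle and ornithine aminotransferase, which uses the ornithine that the cycle carries, were followed across liver sections of F344 rats that received clofibric acid (CA), a lipid-lowering fibrate and PPARα ligand. Members were the probe sets whose ID begins with the accession of 1 of 6 genes: 2 probe sets for ornithine aminotransferase (Oat) and 1 each for carbamoyl phosphate synthetase (Cps1), ornithine carbamoyltransferase (Otc), argininosuccinate synthase (Ass1), argininosuccinate lyase (Asl) and arginase (Arg1). These are 7 of the 8740 non-control probe sets on the array, and none was missing. The deposited table names no genes, so the symbols rest on the accessions that the selection paired with them.

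Total RNA was hybridized to 52 one-colour oligonucleotide arrays, 1 per sample, from rats that were untreated or had received CA at 0.29% or 0.54%. Of entire liver sections there were 8 arrays without CA, 8 with 0.29% and 6 with 0.54%, and of stained sections 8, 7 and 5 in the same order. Microdissected liver, cut out of the section by laser capture microdissection (LCM), had 2 arrays without CA and 1 with either dose. For dehydrated and LCM-reference-time liver, each of the 3 treatments had a single array. The labels do not give the route or length of treatment, the age of the rats, or the liver zone that was microdissected. Nor do they tie the replicates to different rats, and the p-values speak only of the spread from array to array, part of which may be technical. Lists of marker genes of other liver cell types were not used here, because they had been set up by symbol and the table gives none.

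The urea cycle turns ammonia, which is toxic, into urea and runs almost wholly in hepatocytes, above all in those around the portal vein. Cps1 and Otc work in the mitochondrion, where they make carbamoyl phosphate and join it to ornithine to give citrulline. Ass1, Asl and Arg1 work in the cytosol, where they build argininosuccinate, split it into arginine and fumarate, and split arginine into urea and ornithine. Oat, a mitochondrial enzyme, takes ornithine out of the cycle towards glutamate and proline, and in liver it is found mainly in the hepatocytes next to the central vein.

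The start regions of Oat and Asl are shown because in entire sections these were the genes whose CA arrays lay wholly below the controls. Each is the stretch of 250 bases before the annotated start of transcription in RefSeq (build GRCr8), which held an entry for 5 of the 6 genes. Capitals mark, on either strand, the letters CCAAT, known as the CCAAT box, and the letters GGGCGG, known as the GC box.
Oat, chr1:196797755-196798004, minus strand: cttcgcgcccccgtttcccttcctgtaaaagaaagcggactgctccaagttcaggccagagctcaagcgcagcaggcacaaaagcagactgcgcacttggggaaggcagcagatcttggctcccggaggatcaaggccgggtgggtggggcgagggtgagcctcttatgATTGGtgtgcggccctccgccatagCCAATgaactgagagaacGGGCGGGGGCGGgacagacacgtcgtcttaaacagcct
Asl, chr12:32295658-32295907, plus strand: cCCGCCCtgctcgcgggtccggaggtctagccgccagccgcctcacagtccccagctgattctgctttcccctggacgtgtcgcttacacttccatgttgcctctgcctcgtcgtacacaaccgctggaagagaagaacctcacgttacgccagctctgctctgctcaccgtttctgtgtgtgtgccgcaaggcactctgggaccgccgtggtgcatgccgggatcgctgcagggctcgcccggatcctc

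The Oat stretch held CCAAT once on each strand and GGGCGG as 2 adjoining copies. The Asl stretch held GGGCGG once, on the other strand and at its far end, and those of Cps1, Otc and Ass1 held neither. Of 33469 stretches of this length, 34.0% held a CCAAT box, 30.5% held a GC box, and 1.59% held the former on both strands together with the latter. That last combination is the one the Oat stretch holds, so its share is no measure of how unusual Oat is. G and C made up 60.8% of the Oat stretch and 64.0% of that of Asl. For Cps1, Otc and Ass1 they made up 38.0%, 44.4% and 51.2%, and the median of all stretches was 51.2%. AGGTCA, the core hexamer bound by PPARα and related receptors, was in 14.1% of all stretches and in none of the 5, and DR1, a direct repeat of this hexamer with 1 base between, was in 0.0508% and in none of the 5. These matches describe letters in a window and no measurement of binding.

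Of the 42 entire and stained arrays 6 stand apart. Entire control 7, entire 0.29% CA 7 and entire 0.54% CA 5 exceed 4 in the GAPDH 3'/5' ratio. Stained control 8, stained 0.29% CA 7 and stained 0.54% CA 5 have a 5S ribosomal RNA intensity above 200. The ratio was judged only in entire sections and the 5S RNA only in stained sections, and the other preparations were not judged. Among others, all stained controls (lowest 4.66) and all dehydrated arrays (lowest 6.36) also exceed a ratio of 4. Without the 6 arrays that stand apart, all Oat calls and the Asl calls described below kept their side of the threshold, except for the size difference between the Oat probe sets. The calls that changed are given beside each gene. No pair of arrays held identical values.

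Values below are deposited intensities unless a log2 value is named. Log2 values and fold changes come from intensities raised to a floor of 4, taken to log2 and quantile normalized between the 52 arrays. A probe set was called when its adjusted p in limma lay under 0.05 over all probe sets tested. Statements on overlap refer to deposited intensities. In bulk sections, fewer cells of a type and less RNA per cell cannot be told apart.

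**Figure D1:**
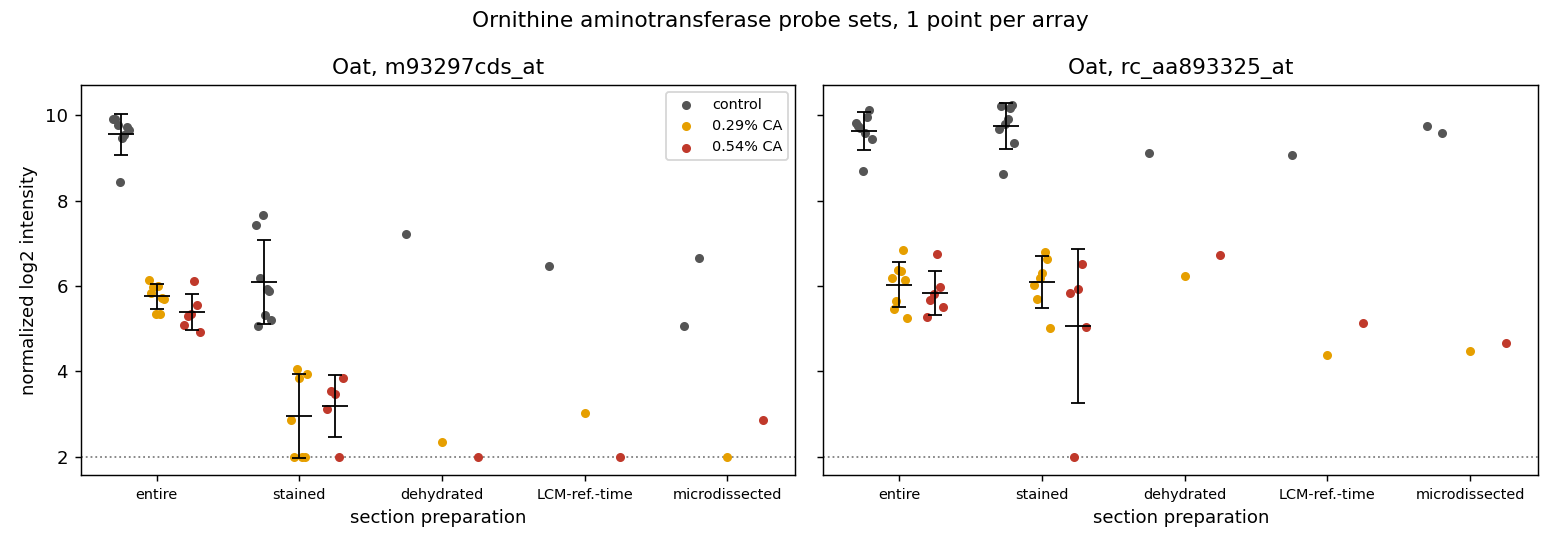
Normalized log2 intensity of both Oat probe sets (vertical axis) in the 5 section preparations (horizontal axis), with 1 point per array coloured by dose, bars for the mean ± SD of groups above 2 arrays, and a dotted line at the floor, log2 of 4. Every CA array lies below every control of the same preparation, and m93297cds_at is lower in stained controls, at a mean log2 of 6.09, than in entire controls, at 9.55.

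CA lowered the Oat signal of entire sections to between 5.57% and 8.26% of control over both probe sets and doses. With m93297cds_at, placed by its ID on the coding sequence, entire controls ran from 432 through a median of 922.5 to 1064 (n = 8). At 0.29% CA the same probe set ran from 44 through 70.5 to 86 (n = 8), and at 0.54% CA from 37 through 52.5 to 74 (n = 6). No CA array overlapped the controls, and the highest CA array was at 86 against 432 in the lowest control. The fall was 13.9-fold at 0.29% (log2 -3.80 ± 0.20, SE, limma adjusted p = 8.41e-12) and 17.9-fold at 0.54% (log2 -4.17 ± 0.21, SE, limma adjusted p = 3.77e-12).

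The other Oat probe set, rc_aa893325_at, which comes from an expressed sequence tag, gave nearly the same picture. Its controls ran from 503 through 912 to 1279 (n = 8), its 0.29% arrays from 45 through 92 to 128 (n = 8) and its 0.54% arrays from 52 through 70 to 124 (n = 6). Again the groups did not overlap. It was 12.1-fold lower at 0.29% (log2 -3.60 ± 0.24, SE, limma adjusted p = 3.64e-10) and 13.9-fold lower at 0.54% (log2 -3.80 ± 0.26, SE, limma adjusted p = 4.15e-10). Both doses are set against the same 8 controls. Among all 7804 probe sets tested, ordered from the largest fall, m93297cds_at stood at rank 5 at 0.29% and rank 3 at 0.54%, and rc_aa893325_at at rank 6 at both doses.

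Whether both probe sets report the same size of change was asked within each array, here in entire sections and below in stained sections. The difference between them within an array, m93297cds_at minus rc_aa893325_at on the log2 scale, was -0.07 ± 0.25 in entire controls (SD, n = 8), -0.27 ± 0.70 at 0.29% (SD, n = 8) and -0.44 ± 0.16 at 0.54% (SD, n = 6). At 0.29% it lay 0.20 below control (exact permutation test over arrays, two-sided, p = 0.472, adjusted over 4 tests 0.472). At 0.54% it lay 0.37 below, a 1.29-fold larger fall with m93297cds_at (exact permutation p = 0.0107, adjusted 0.0426). That call did not hold in 10 of 14 fits that left out 1 array, with adjusted p up to 0.0995, nor without the 6 arrays that stand apart (adjusted p = 0.0505). Between the doses Oat did not pass the test with either probe set, at log2 -0.37 ± 0.21 (SE, limma adjusted p = 0.573) for m93297cds_at and -0.20 ± 0.26 (SE, limma adjusted p = 0.845) for rc_aa893325_at.

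Of the 7 members, 6 fell in entire sections at 0.29% CA and 0 rose, while 5.69% of all 7804 probe sets tested were called lower and 5.55% higher. At 0.54% CA 5 fell and 0 rose, against 7.74% called lower and 8.1% higher in all. The median log2 change of the members was -0.64 and -0.83 at those doses, and that of all probe sets tested was -0.01 at both. For 3 members, the Oat pair and Asl, the CA arrays lay wholly below the controls at each dose, as they did for 1.77% of all probe sets at 0.29% and 2.97% at 0.54%. Between the doses 0 of 7 members were called, of 1.01% in all, with changes from log2 -0.37 to 0.40. In limma 1 member, Otc, had an unadjusted p under 0.05, a threshold for which the share of all probe sets was not determined.

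**Figure D2:**
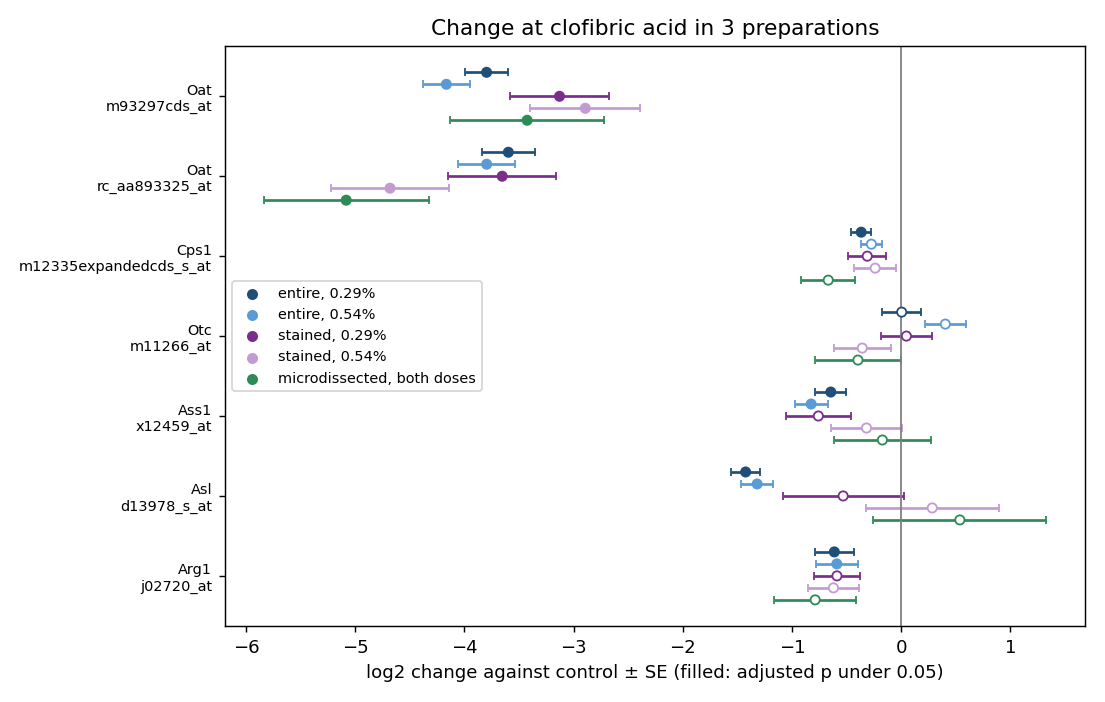
Log2 change against control ± SE (horizontal axis) for each of the 7 probe sets (vertical axis) in entire and stained sections at both doses and in microdissected sections with the doses averaged. Filled points have a limma adjusted p under 0.05. Both Oat probe sets lie between log2 -2.89 and -5.08, and the urea cycle enzymes between -1.42 and 0.54.

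Cps1, which commits ammonia to the cycle, moved little. Its intensity in entire sections ran from 2718 through 3102 to 3915 in controls (n = 8), from 2100 through 2467 to 2783 at 0.29% (n = 8) and from 1927 through 2546.5 to 3579 at 0.54% (n = 6). The deposited intensities overlapped, at 0.29% only through control replicate 7 at 2718 and the CA array at 2783, and after normalization the 0.29% arrays lay below the controls. It was 1.29-fold lower at 0.29% (log2 -0.37 ± 0.09, SE, limma adjusted p = 0.00799) and at log2 -0.27 ± 0.10 at 0.54% (SE, limma adjusted p = 0.0574). The first call was lost on the deposited scale (adjusted p = 0.111) and in a fit of all 15 groups (adjusted p = 0.0714), and the second was made with a floor of 20 (adjusted p = 0.0276).

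Otc, the next step, was not called in entire sections. It ran from 681 through 854 to 1409 in controls, from 726 through 920 to 1302 at 0.29% and from 864 through 1346 to 1499 at 0.54% (n = 8, 8 and 6). The groups overlapped, at log2 0.00 ± 0.18 (SE, limma adjusted p = 1) at 0.29% and 0.40 ± 0.19 (SE, limma adjusted p = 0.171) at 0.54%. Otc was the only member with a positive log2 change in these comparisons, and 8 of 16 fits without 1 array turned its sign at 0.29%.

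Ass1, which joins citrulline to aspartate, ran from 2594 through 3995.5 to 4378 in entire controls, from 1534 through 2716.5 to 3080 at 0.29% and from 1860 through 2128 to 2900 at 0.54% (n = 8, 8 and 6). The overlap with the CA groups came from control replicate 7, at 2594, since the next control was at 3659. Ass1 fell 1.56-fold at 0.29% (log2 -0.64 ± 0.14, SE, limma adjusted p = 0.00319) and 1.77-fold at 0.54% (log2 -0.83 ± 0.15, SE, limma adjusted p = 0.000479). In a fit of all 15 groups, the 0.29% call was lost (adjusted p = 0.0765).

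Asl had the largest change among the cycle's own enzymes. It ran from 1237 through 1483.5 to 1647 in entire controls (n = 8). At 0.29% it ran from 390 through 584 to 836 (n = 8), and at 0.54% from 529 through 616.5 to 811 (n = 6). All CA arrays lay below all controls, and the doses overlapped each other. The fall was 2.68-fold at 0.29% (log2 -1.42 ± 0.13, SE, limma adjusted p = 7.89e-08) and 2.50-fold at 0.54% (log2 -1.32 ± 0.14, SE, limma adjusted p = 5.84e-07), calls that held under every alternative and every fit without 1 array.

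Arg1, which releases urea, ran from 2004 through 2626.5 to 3430 in entire controls, from 1420 through 1702.5 to 2134 at 0.29% and from 1025 through 1735.5 to 2627 at 0.54% (n = 8, 8 and 6). The groups overlapped. It was 1.53-fold lower at 0.29% (log2 -0.61 ± 0.18, SE, limma adjusted p = 0.0291) and 1.50-fold lower at 0.54% (log2 -0.59 ± 0.19, SE, limma adjusted p = 0.0425). These calls sit near the threshold: leaving out 1 array ended the first in 8 of 16 fits and the second in 9 of 14, and on the deposited scale (adjusted p = 0.0933 and 0.0905) and without the arrays that stand apart (adjusted p = 0.0537 and 0.0875) both were lost. The call at 0.54% also ended in a fit of all groups (adjusted p = 0.0588) and with the replicate block (adjusted p = 0.0796).

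**Figure D3:**
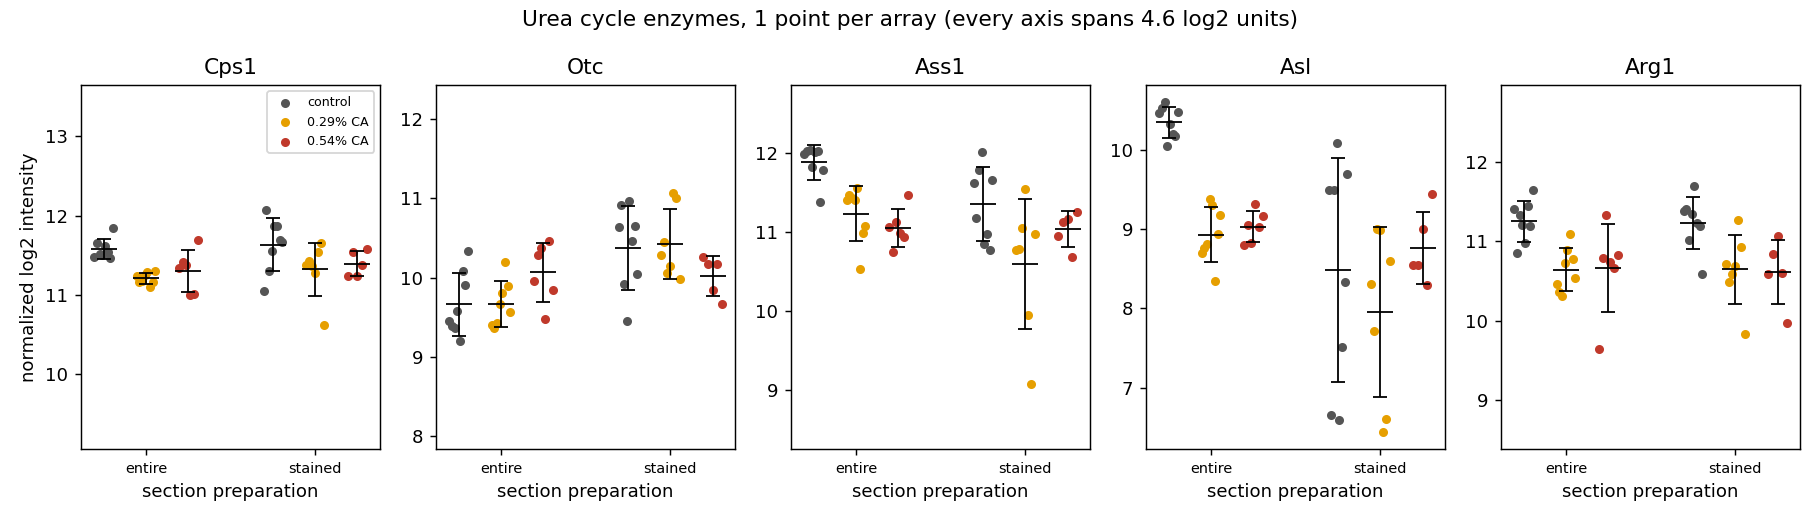
Normalized log2 intensity (vertical axis, every panel spanning the same range) of Cps1, Otc, Ass1, Asl and Arg1 in entire and stained sections (horizontal axis), with 1 point per array coloured by dose and bars for the mean ± SD. In entire sections the Asl arrays at CA lie apart from the controls, and in stained sections the Asl controls spread over an SD of 1.41 against 0.20 in entire controls.

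Stained sections kept the Oat fall. With rc_aa893325_at, stained controls ran from 402 through 944 to 1151 (n = 8). At 0.29% CA the arrays ran from 20 through 77 to 119 (n = 7), and at 0.54% CA the 5 arrays read 61, -76, 66, 98 and 32. All CA arrays lay below all controls. The fall was 12.6-fold at 0.29% (log2 -3.65 ± 0.49, SE, limma adjusted p = 6.50e-05) and 25.6-fold at 0.54% (log2 -4.68 ± 0.54, SE, limma adjusted p = 7.41e-06). Without stained replicate 2 at 0.54%, the array that read -76, the latter was 15.1-fold (adjusted p = 6.51e-07).

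With m93297cds_at the stained controls were already low, so its fall ended near the floor. The controls read 151, 28, 72, 196, 42, 49, 46 and 31. The 7 arrays at 0.29% CA read 7, 2, 14, 15, -1, -3 and 10, and the 5 at 0.54% read 9, 12, 11, -1 and 14. The highest CA array, at 15, lay below the lowest control, at 28. The fitted fall was 8.75-fold at 0.29% (log2 -3.13 ± 0.46, SE, limma adjusted p = 0.000173) and 7.43-fold at 0.54% (log2 -2.89 ± 0.50, SE, limma adjusted p = 0.000837). Since 3 of the 7 and 1 of the 5 CA arrays were at the floor, these folds depend on it, and with a floor of 20 they were 3.40-fold at both doses. The within-array difference m93297cds_at minus rc_aa893325_at lay 0.52 above stained controls at 0.29% and 1.79 above at 0.54%, opposite in sign to entire sections. Neither passed (exact permutation p = 0.434 and 0.0995, adjusted over 4 tests 0.472 and 0.199).

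In stained sections 2 of 7 members, the Oat pair, were called lower at each dose, of 1.78% of 7913 probe sets at 0.29% and 3.18% at 0.54%. Their CA arrays lay wholly below the controls, as did those of 0.341% of all probe sets at 0.29% and 0.847% at 0.54%. The remaining 5 overlapped their controls and were not called. Cps1 was at log2 -0.31 ± 0.17 and -0.24 ± 0.19 (SE) at 0.29% and 0.54%, and Otc at 0.05 ± 0.24 and -0.36 ± 0.26 (SE). Ass1 was at -0.76 ± 0.30 and -0.32 ± 0.33 (SE), and Arg1 at -0.59 ± 0.21 and -0.62 ± 0.23 (SE), near its values in entire sections. Asl was at -0.53 ± 0.55 and 0.28 ± 0.61 (SE). On simulated data for these comparisons, 44% and 32% of 2-fold changes were recovered, against 72% and 70% in entire sections. The simulated noise was independent between probe sets, and changes were set only in probe sets well above the floor in entire controls. These shares need therefore not hold for the members. The median GAPDH 3'/5' ratio, a measure of RNA quality described below, was 10.2 in stained controls, 7.32 at 0.29% and 4.47 at 0.54%, and its part in these changes was not tested beyond the fit with it as a covariate, which kept both Oat calls at each dose. The median log2 change of the members was -0.59 and -0.36, beside -0.01 and -0.05 for all probe sets tested. Between the doses in stained sections 0 of 7 members were called, of 0.0632% in all, and 0 had an unadjusted p under 0.05 in limma. For rc_aa893325_at the difference was log2 -1.03 ± 0.56 (SE, limma adjusted p = 0.951), and -0.26 without stained replicate 2 at 0.54%.

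No member was called in the test of whether the CA effect differed between stained and entire sections, of 0.0855% of 8191 probe sets called at 0.29% and 0.134% at 0.54%. At an unadjusted p under 0.05 in limma there were 0 members at 0.29% and 3 at 0.54%, m93297cds_at, Otc and Asl. The share of all probe sets under that unadjusted threshold was not determined. These counts therefore have no background and cannot be set against the shares of adjusted calls. For rc_aa893325_at that difference, stained minus entire, was log2 -0.06 ± 0.55 at 0.29% and -0.88 ± 0.60 at 0.54% (SE, limma adjusted p = 1 and 0.620). For m93297cds_at it was 0.67 ± 0.49 and 1.27 ± 0.54 (SE, limma adjusted p = 1 and 0.439), and with a floor of 20, which cuts the fall in stained sections, 2.03 and 2.39 (adjusted p = 0.00385 and 0.000477). For Asl it was 0.89 ± 0.56 and 1.60 ± 0.61 (SE, limma adjusted p = 1 and 0.416), and for Otc at 0.54% it was -0.76 ± 0.32 (SE, limma adjusted p = 0.427). The widths of these errors leave room for sizeable differences.

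Without CA, the 2 Oat probe sets parted between the preparations. Between stained and entire controls m93297cds_at was 11.0-fold lower after staining (log2 -3.46 ± 0.34, SE, limma adjusted p = 1.02e-09), with every stained control below every entire control. For rc_aa893325_at the same comparison gave log2 0.12 ± 0.38 (SE, limma adjusted p = 0.881), and the groups overlapped. The within-array difference of the pair was -3.66 ± 1.19 in stained controls and -0.07 ± 0.25 in entire controls (SD, n = 8 each; exact permutation p = 0.000155, as small as 8 arrays against 8 can give). This last test was added after the values had been seen.

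Asl was also lower in stained controls, 3.65-fold (log2 -1.87 ± 0.39, SE, limma adjusted p = 0.000305). Stained controls ran from 79 through 419 to 1089, below all entire controls in deposited intensity, whose lowest was 1237, with an overlap after normalization, where the highest stained control was at log2 10.09 and the lowest entire control at 10.05. Otc was 1.64-fold higher in stained controls, which ran from 700 through 1437 to 2161 (log2 0.72 ± 0.20, SE, limma adjusted p = 0.00575). Thus 2 members were called lower, of 13.8% of all 8191 probe sets, and 1 higher, of 16.4%. For 2 members, m93297cds_at and Asl, the groups did not overlap, as for 6.71% of all probe sets in that direction. Cps1, Ass1 and Arg1 were not called, at log2 0.06 ± 0.13, -0.52 ± 0.22 and -0.02 ± 0.19 (SE), and Ass1 was called without the arrays that stand apart (log2 -0.64, adjusted p = 0.0441). On the deposited scale, which moved the median of all probe sets to 0.42 from 0.09 and the share of calls that were higher to 74.2% from 54.4%, Cps1 was higher (log2 0.64, adjusted p = 0.00306), and Ass1 and Arg1 had a positive sign at 0.03 and 0.44.

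**Figure D4:**
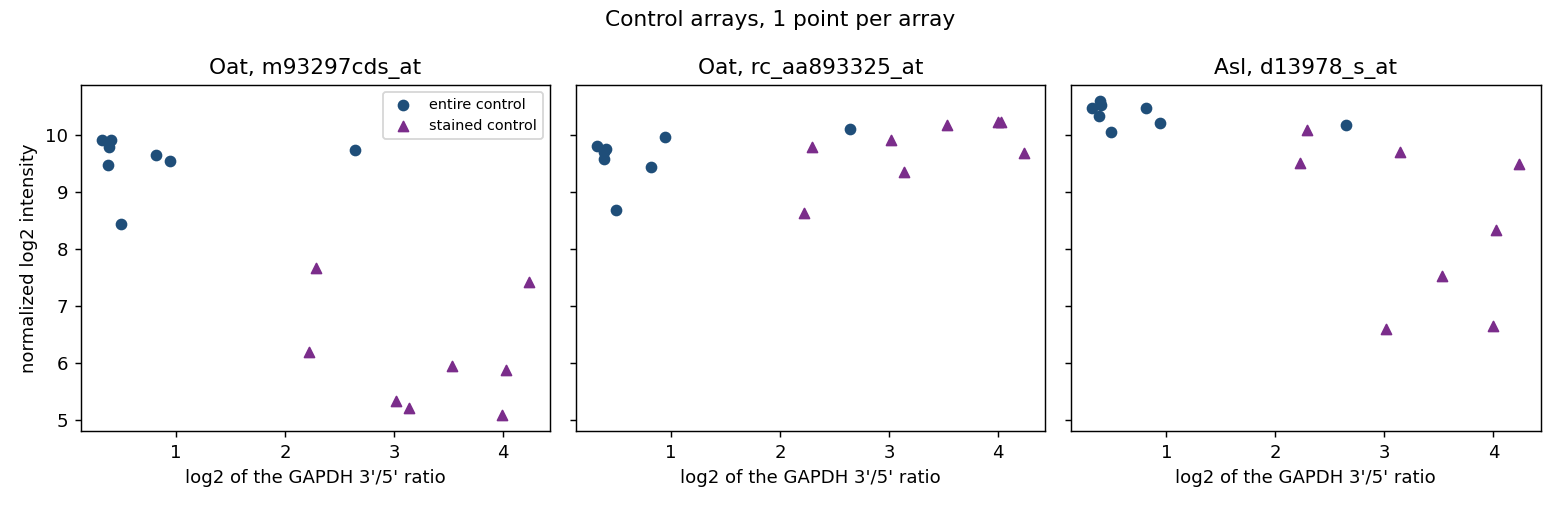
Normalized log2 intensity (vertical axis) of both Oat probe sets and of Asl on the 16 control arrays against the log2 of the GAPDH 3'/5' ratio (horizontal axis), circles for entire and triangles for stained sections. For m93297cds_at the highest stained control, at log2 7.67, lies below the lowest entire control, at 8.44, whereas for rc_aa893325_at stained controls run from 8.62 to 10.23 and entire controls from 8.68 to 10.11.

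RNA quality moved with the preparation, as read from GAPDH, whose signal at the 3' end over that at the 5' end grows when transcripts are shortened. Its median was 1.36 in entire controls, with a range of 1.25 to 6.25, and 10.2 in stained controls, with a range of 4.66 to 18.9. Among the 8 stained controls none of the 7 members' relations with the ratio passed after adjustment: on log2 scales Pearson's r was -0.19 and Spearman's rho -0.19 for m93297cds_at (exact permutation p = 0.645 and 0.665, adjusted over 7 relations 0.756 and 0.775). Without the 2 arrays farthest from the median ratio, r was 0.60. The largest was that of Otc, at r = 0.75 and rho = 0.52 (exact permutation p = 0.0366 and 0.197, adjusted 0.256 and 0.459), and r was 0.26 without the 2 farthest. For rc_aa893325_at r was 0.64 and rho 0.52 (exact permutation p = 0.0791 and 0.197, adjusted 0.277 and 0.459), and r was 0.39 without the 2 farthest. For Asl r was -0.39 and rho -0.33 (exact permutation p = 0.323 and 0.428, adjusted 0.566 and 0.749), and r was 0.18 without the 2 farthest. With the ratio as a covariate over both preparations, m93297cds_at was 7.86-fold lower in stained controls and still called (adjusted p = 0.000258), Asl was 2.09-fold lower and not called (log2 -1.07, adjusted p = 0.340), and Otc was at log2 -0.02 (adjusted p = 0.987). Over all doses the median ratio was 1.54 in entire and 8.45 in stained sections, so this fit cannot tell RNA quality and preparation apart. The part of RNA quality in the differences between preparations was thus not tested. Within entire sections the median ratio was 1.35 at 0.29% and 2.16 at 0.54%, and with the covariate every Oat, Asl, Ass1 and Arg1 call there held.

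Microdissected liver showed the Oat fall as well. Its arrays differed in overall brightness, with a mean intensity of 117 to 190, so deposited readings are not directly comparable between them. With rc_aa893325_at the 2 controls read 705 and 349, the array at 0.29% CA read 12 and that at 0.54% CA read 27. In the same order the normalized log2 values were 9.74, 9.58, 4.48 and 4.68. With the doses averaged and the spread taken from all 15 groups, so that the lone arrays are assumed to vary like the others, it was 33.9-fold lower (log2 -5.08 ± 0.75, SE, limma adjusted p = 4.14e-06). With m93297cds_at the controls read 26 and 52 and the CA arrays 4 and 8, of which the first is at the floor, and the fitted fall was 10.7-fold (log2 -3.43 ± 0.70, SE, limma adjusted p = 0.000688). That call ended with a floor of 20 (log2 -1.54, adjusted p = 0.0547), and without microdissected control replicate 2 the fall was 6.19-fold and without replicate 1 it was 18.6-fold. These 2 members were called lower, of 7.08% of 8318 probe sets, and their arrays did not overlap, as for 13.6% of all. The GAPDH 3'/5' ratio was lower on the CA arrays here, at 6.20 for 0.29% and 3.02 for 0.54%, than on the controls, at 9.22 and 14.3. With the ratio as a covariate both Oat probe sets were still called, at 31.4-fold for rc_aa893325_at (adjusted p = 2.00e-05) and 13.3-fold for m93297cds_at (adjusted p = 0.000412), and Otc and Asl were at log2 0.016 and 0.060.

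The cycle's own enzymes were not called in microdissected liver. Cps1 read 3148 and 4306 in controls, 1040 at 0.29% and 3171 at 0.54%. In the same order its normalized log2 values were 11.55, 12.10, 10.82 and 11.49 (log2 change -0.67 ± 0.25, SE, limma adjusted p = 0.0694). Cps1 was called without the arrays that stand apart (limma adjusted p = 0.0371) and with microdissected and entire groups alone in the fit (limma adjusted p = 0.0138). The latter fit took its spread mostly from entire sections. There the SD of Cps1 was 0.13, 0.07 and 0.26 at control, 0.29% and 0.54%, against 0.39 in the 2 microdissected controls. The change was log2 -0.95 without microdissected control replicate 1 and -0.39 without replicate 2. Asl read 183 and 296 in controls, 261 at 0.29% and 516 at 0.54%. Its normalized log2 values were 7.91 and 9.31 in controls, 9.16 at 0.29% and 9.14 at 0.54%, so the doses were alike after normalization. The log2 change of Asl was 0.54 ± 0.79 (SE, limma adjusted p = 0.803), and its sign turned without control replicate 1. Otc, Ass1 and Arg1 were at log2 -0.40 ± 0.40, -0.17 ± 0.44 and -0.79 ± 0.37 (SE). In simulated data for this comparison, made as for stained sections and with the same limit, 21% of 2-fold changes were recovered.

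No test was made in dehydrated and LCM-reference-time liver. With m93297cds_at dehydrated sections read 172 in the control, 5 at 0.29% and 4 at 0.54%, and LCM-reference-time sections 47, 6 and -2. With rc_aa893325_at they read 712, 87 and 83, and 211, 16 and 30. The lower Oat reading at CA was thus seen on all 4 of these CA arrays with both probe sets. With m93297cds_at the controls of both preparations read below the lowest entire control, 432. With rc_aa893325_at the LCM-reference-time control, at 211, also read below its lowest entire control, 503, and the dehydrated control did not. In normalized log2 these rc_aa893325_at controls were at 9.06 and 9.12, above the lowest entire control at 8.68. The arrays of LCM-reference-time sections differ in overall brightness, with a mean intensity of 127 to 173, so the cycle's enzymes are given as normalized log2 values, in the order control, 0.29% and 0.54%. Asl was at 9.81, 7.29 and 7.81 in dehydrated sections and at 9.83, 9.20 and 9.48 in LCM-reference-time sections. Ass1 was at 11.69, 10.37 and 10.39, and at 11.73, 11.32 and 11.13. Both enzymes were thus lower on each CA array than on its control, although in deposited intensity the LCM-reference-time array at 0.54% read higher than its control for Asl, at 623 against 363, and for Ass1, at 2279 against 2207. Arg1 was at 11.46, 11.04 and 10.56, and at 10.76, 9.64 and 10.22, again lower at CA, while its deposited intensity at 0.54% in LCM-reference-time sections, 1071, was above the control's 784. Otc was at 10.09, 10.95 and 10.60, and at 10.33, 10.14 and 9.99, so it moved in opposite directions in these preparations, and on the deposited scale it was higher at CA in both. Cps1 was at 11.73, 11.44 and 11.29, and at 11.98, 11.40 and 11.32, lower at CA throughout. The GAPDH 3'/5' ratio differed with treatment in these preparations too, and in opposite directions. On dehydrated liver it read 6.36, 11.8 and 14.3, while on LCM-reference-time liver it read 7.28, 3.12 and 4.70, and its part in the differences between single arrays was not tested.

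In the order of log2 level of m93297cds_at over the groups with replicates, entire controls stood first at 9.55 ± 0.48 (SD, n = 8), followed by stained controls at 6.09 ± 0.98 (SD, n = 8), microdissected controls at 5.86 (n = 2), entire sections at 0.29% at 5.76 ± 0.29 (SD, n = 8) and at 0.54% at 5.39 ± 0.42 (SD, n = 6). Stained sections at 0.54% and 0.29% came last, at 3.20 ± 0.72 (SD, n = 5) and 2.96 ± 0.98 (SD, n = 7). The 4 groups from stained controls to entire sections at 0.54% do not differ from their neighbours beyond their spread, nor do the last 2. For rc_aa893325_at the control groups of entire, stained and microdissected liver stood at 9.63, 9.74 and 9.66, and the entire and stained groups given CA between 5.06 and 6.09.

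Over the 42 entire and stained arrays, Pearson's r of log2 intensity with m93297cds_at was 0.66 for rc_aa893325_at, 0.75 for Ass1, 0.75 for Asl, 0.44 for Arg1, 0.18 for Cps1 and -0.49 for Otc. Among 2775 other probe sets above the floor on all of these arrays, j02596cds_at (r = 0.91) and y00156cds_f_at (r = 0.89) were most like it, and m14972_i_at (r = -0.93) and u75393_s_at (r = -0.92) ran most opposite. The mean intensity of j02596cds_at was 7937, 4441 and 3311 in entire sections at control, 0.29% and 0.54%, and 6764, 3243 and 3204 in stained sections. That of m14972_i_at was 544, 2665 and 2735 in entire sections and 1464, 5162 and 4902 in stained sections. All these points share dose and preparation, so the correlations describe common group differences.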

How the data were processed

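Total RNA of rat liver sections was read on 52 one-colour arrays, and the authors deposited 1 table of intensity values per probe set, of which 24.2% lie below 0. For scaling, software and probe-level steps, nothing is stated in the labels or the table. Intensities were raised to a floor of 4 (the 10th percentile of positive values), taken to log2, and quantile normalized over 8740 non-control probe sets. The deposited log2 scale, centred per array, was an alternative. limma 3.58.1 (R 4.3.3) fitted groups of a preparation together, or all 15 groups for microdissected liver, over probe sets above the floor on at least 1 array, with Benjamini-Hochberg adjustment and a threshold of 0.05. Fits were tested on simulated data. Exact permutation tests used SciPy 1.17.1 (Python 3.11.15), and figures matplotlib 3.10.9.

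The members and lists were chosen with earlier results of these data known. All members are named, and otherwise the 2 probe sets most and the 2 least correlated with m93297cds_at. A wider pathway list and markers of liver cell types (hepatocyte, perivenous hepatocyte, macrophage, stellate, endothelial, biliary and red blood cell) were set up by symbol and have no result, since 0 accessions in the probe set IDs matched the RefSeq gene table. Alternatives were the scaling, a floor of 20, a filter on low values, the groups in the fit, the replicate number as a block, the GAPDH ratio in the model, and fits without the arrays that stand apart or without each array in turn. The number of arrays limits the precision.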

Additional observations from a re-analysis of the deposited data

Results flagged for a closer look

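In 42 checks, each of 1 probe set in 1 group of 5 to 8 arrays, 4 had a lowest array far from the others by Dixon's test. For independent checks, chance gives this in about 1 of 20, but the probe sets share arrays and these checks are not independent. In entire control replicate 4 both Oat probe sets were lowest, m93297cds_at at a normalized log2 of 8.44 (intensity 432, next array 795) and rc_aa893325_at at 8.68 (intensity 503, next array 791). Cps1 was lowest in stained 0.29% CA replicate 7, at log2 10.62 (intensity 1091, next array 2817), an array that stands apart by its 5S ribosomal RNA. Ass1 was lowest in entire control replicate 7, at log2 11.37 (intensity 2594, next array 3877 in normalized order), an array that stands apart by its GAPDH ratio. Without entire control replicate 4 the Oat falls in entire sections were larger, at 15.5-fold with m93297cds_at and 13.3-fold with rc_aa893325_at for 0.29% CA.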

How the results depend on the processing

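Over 68 results, 414 of 454 values under other settings and 960 of 1021 without 1 array kept their direction and side of the threshold. The cause of the following changes was not tested. On the deposited scale, Cps1 at 0.29% CA in entire sections (log2 -0.37) and Arg1 at both doses (-0.57) lost their calls, and in stained against entire controls Cps1 was called (0.64) and Ass1 (0.026) and Arg1 (0.44) turned sign. With all groups in the fit, Cps1 (-0.37) and Ass1 (-0.64) at 0.29% and Arg1 at 0.54% (-0.59) lost their calls in entire sections, and Ass1 at 0.29% in stained sections (-0.76) and Cps1 in microdissected liver (-0.67, there with only entire and microdissected groups) gained them. Without the arrays that stand apart, Arg1 lost its calls in entire sections (-0.64 and -0.60), as did the difference between the Oat probe sets at 0.54% (-0.42), Ass1 (-0.64, stained against entire controls) and Cps1 (-0.67, microdissected) gained them, and Arg1 in stained against entire controls (0.060) and the difference of the rc_aa893325_at effect at 0.29% (0.015) turned sign. With a floor of 20, Cps1 at 0.54% was called (-0.27), 1 member was called in each difference between preparations (m93297cds_at, 2.03 and 2.39), and 1 in microdissected liver, where m93297cds_at lost its call (-1.54). With that floor the within-array difference m93297cds_at minus rc_aa893325_at in stained sections lay 1.98 (0.29%) and 2.45 (0.54%) above that of stained controls. Every stained CA array of m93297cds_at read under 20, and every stained control above it. This floor therefore draws the probe sets together at CA by itself, and these values do not measure their difference. The filter on low values removed m93297cds_at from stained sections, which left 1 member called at each dose, and called Cps1 at 0.54% (-0.27) and Ass1 between controls (-0.52). With the GAPDH covariate 1 member was called between controls: Asl was at -1.07, and rc_aa893325_at (-0.077), Otc (-0.015) and Ass1 (0.084) turned sign, as did Asl at 0.54% in stained sections (-0.24) and Otc in microdissected liver (0.016).

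The labels do not say that replicate numbers pair the arrays, and the arrays did not meet the rule that every same-numbered pair have deviations correlated above 0.1: 11 of 20 pairs did within entire sections, 9 of 17 within stained sections and 12 of 20 between entire and stained sections of the same dose. Between stained controls and stained 0.29% CA 6 of 7 pairs did, at 0.29 to 0.78, and the other was at -0.27. An array was closest to its own number in 18 of 74 cases. Whether some arrays share an origin is thus not settled. With the replicate block Arg1 at 0.54% in entire sections was not called (-0.56) and Otc at 0.29% in stained sections was at -0.000926; it raised the 79 calls between doses in entire sections to 211.

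Leaving out 1 array in turn gave, in entire sections, Otc from -0.072 to 0.10 and Arg1 from -0.68 to -0.56 at 0.29%, and Cps1 from -0.35 to -0.21, Arg1 from -0.72 to -0.39 and the Oat probe set difference from -0.42 to -0.33 at 0.54%. Otc at 0.29% in stained sections ran from -0.085 to 0.13. Between controls rc_aa893325_at ran from -0.019 to 0.28, Cps1 from -0.0055 to 0.14, Ass1 from -0.62 to -0.44 and Arg1 from -0.089 to 0.069. The difference of the rc_aa893325_at effect at 0.29% ran from -0.22 to 0.12, and in microdissected liver Cps1 ran from -0.95 to -0.39, Ass1 from -0.37 to 0.026 and Asl from -0.16 to 1.23.

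Calls over all probe sets between controls moved from 2475 to 3798 on the deposited scale, 1333 with the filter and 400 with the GAPDH covariate. All groups in the fit took entire sections from 877 to 539 at 0.29% and from 1236 to 790 at 0.54%, and stained sections from 286 to 546 and from 499 to 964, the last also to 301 with the GAPDH covariate. In microdissected liver 1069 became 1841 with fewer groups in the fit, 416 with the filter and 312 on the deposited scale, with 56.7% in place of 44.9% higher. Between doses in entire sections 79 became 34 on the deposited scale (58.8% in place of 46.8% higher), 132 with the floor of 20 and 41 with all groups, and in stained sections 5 became between 1 and 18. The 7 and 11 differences between preparations became 16 and 30 with the floor of 20, 17 and 22 without the arrays that stand apart, and 0 with the filter, and the 11 became 6 with the covariate. On the deposited scale the share of the first that were higher was 16.7% in place of 28.6%. Signals near the floor limit m93297cds_at in stained and microdissected sections.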
